A study of Mus musculus with 12 samples.

Results

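Amino acid transporters are membrane proteins that carry amino acids into the cell, out of it or across the lysosomal membrane. The genes described here are the protein-coding members of 7 solute carrier families that move amino acids or close relatives of them, namely Slc1, Slc3, Slc6, Slc7, Slc36, Slc38 and Slc43. The families were chosen with earlier results of these data known, and the genes within them by symbol alone. The count table held 64 such genes among 51826 genes. Of these, 28 had at least 10 counts in at least 3 of the 12 lines and are reported. One of them, Slc7a6os, has a symbol of this form but codes for no transporter.

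RNA sequencing compared pre-B cell lines transformed by BCR-ABL1, the oncogenic kinase of Philadelphia chromosome-positive acute lymphoblastic leukemia, with control pre-B cell lines. Bone marrow of 2 C57BL/6 mice was cultured with IL7, the growth factor of early B cells, for 7 days and transduced with a retroviral vector, and each mouse gave 3 lines per condition. The 6 EV lines received the empty vector, stayed in IL7 and were sorted for GFP. The 6 BCR-ABL1 lines received the vector with the oncogene and, after 48 h, were grown for 1 week with no IL7. Oncogene, IL7 withdrawal and the GFP sort, which is stated for EV lines only, therefore cannot be told apart. Each line carries the number of its mouse and a letter (EV 2C came from mouse 2). All lines were cultured with glutamine and 2-mercaptoethanol in the medium. The 12 libraries held 34791011 to 66011225 counts (median 52755639), and EV 2A had the fewest. All 10 B lineage markers were tested, with a summed level of 2491 to 4369 CPM (CPM is the count of a gene relative to the scaled total of its library) in the EV lines, against 2726 to 3623 CPM in the BCR-ABL1 lines. Myeloid, mast cell and basophil, and stromal markers stayed at 0 to 1.69 summed CPM, and T and NK cell markers at 0.415 to 3.76. In such bulk samples fewer cells of a type and less RNA per cell cannot be told apart.

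Several of these carriers work as parts of larger systems. The glycoprotein CD98, made by Slc3a2, brings light chains such as LAT1 (Slc7a5) to the cell surface, where LAT1 takes up leucine and other large neutral amino acids in exchange for glutamine. ASCT2 (Slc1a5) and SNAT2 (Slc38a2) bring in glutamine and other small neutral amino acids, CAT1 (Slc7a1) brings in arginine, and the lysosomal protein SLC38A9 reports arginine to the kinase mTORC1. When amino acids run short, the transcription factor ATF4 raises many of these carriers through a short DNA element called CARE.

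The motifs CARE, E-box and STAT palindrome were searched on both strands of RefSeq promoter windows (GRCm38.p6, 250 bases before to 50 after a transcription start), of which 33 belonged to 21 of the 28 reported genes. The CARE letters TGATGNAAN stood in 3 of these 33 windows (9.09%), from 2 genes (Slc1a4 and Slc7a7), beside 3.95% of all 32851 windows. The E-box CACGTG stood in 4 windows (12.1%), from 4 genes (Slc36a1, Slc38a7, Slc43a1 and Slc7a14), beside 7.15% of all windows, and the window of Slc36a1 held it in 2 places. The STAT palindrome TTCNNNGAA stood in 2 windows (6.06%), from Slc7a1 and Slc38a9, beside 8.3% of all windows. For each of the 4 genes with a CARE or a STAT palindrome 1 window is shown, from 250 bases before to 20 after the start, in lower case with the matched letters in capitals, because these genes recur in the comparisons.
Slc1a4 (chr11:20332694-20332963, minus strand): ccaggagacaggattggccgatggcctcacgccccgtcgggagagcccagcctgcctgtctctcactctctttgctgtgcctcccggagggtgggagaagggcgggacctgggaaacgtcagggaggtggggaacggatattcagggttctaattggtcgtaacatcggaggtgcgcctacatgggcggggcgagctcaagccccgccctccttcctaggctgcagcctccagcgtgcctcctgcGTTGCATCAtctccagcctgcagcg
Slc7a7 (chr14:54417925-54418194, minus strand): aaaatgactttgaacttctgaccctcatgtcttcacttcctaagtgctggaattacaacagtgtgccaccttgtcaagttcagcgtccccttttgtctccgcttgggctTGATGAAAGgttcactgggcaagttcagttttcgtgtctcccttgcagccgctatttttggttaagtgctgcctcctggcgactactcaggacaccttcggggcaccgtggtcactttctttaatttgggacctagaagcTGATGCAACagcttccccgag
Slc38a9 (chr13:112660516-112660785, plus strand): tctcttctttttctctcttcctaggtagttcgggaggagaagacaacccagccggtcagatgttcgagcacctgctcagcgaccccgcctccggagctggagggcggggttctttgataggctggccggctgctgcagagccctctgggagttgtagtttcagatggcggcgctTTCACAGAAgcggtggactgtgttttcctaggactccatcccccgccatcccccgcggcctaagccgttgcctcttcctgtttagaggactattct
Slc7a1 (chr5:148392796-148393065, minus strand): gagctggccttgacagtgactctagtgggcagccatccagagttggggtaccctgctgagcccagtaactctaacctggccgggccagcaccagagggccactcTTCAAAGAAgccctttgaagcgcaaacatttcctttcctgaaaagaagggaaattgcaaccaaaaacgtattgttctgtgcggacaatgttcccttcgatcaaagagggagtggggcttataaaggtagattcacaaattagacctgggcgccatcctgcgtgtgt
Slc7a7 had matches beginning 141 bases and 1 base before this start, and the second of them also lies in the window of another Slc7a7 start, not shown, 243 bases before it. The match in Slc1a4 read the other way, beginning 5 bases before the start. The palindrome began 76 bases before the start of Slc38a9 and 146 bases before that of Slc7a1. Such a match is a stretch of letters, not a binding site. No window was matched for Slc1a5, Slc38a1, Slc43a3, Slc6a6, Slc6a8, Slc7a3 and Slc7a5.

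The RNA of a few carriers was abundant in the pre-B lines. On the scale of CPM per kilobase of exon, which allows levels to be compared between genes, Slc1a5 was highest by mean, with 86.8 to 114 in EV lines and 57.1 to 83.0 in BCR-ABL1 lines. Slc38a2 followed with 29.9 to 39.0 and 42.4 to 49.8. The next in the order were Slc43a3, Slc7a5, Slc3a2, Slc7a6 and Slc38a10. Slc43a3, which carries purine nucleobases and not amino acids, had 35.8 CPM per kilobase on average in BCR-ABL1 lines, close to the 37.0 of Slc7a5. The ranges of neighbouring genes among these overlapped in part, as the plot of levels by line shows. Slc6a6, the taurine carrier, was highest in its family, with means of 7.61 and 8.15, and Slc36a1, a proton-coupled carrier of small amino acids found on lysosomes, had 1.80 and 1.12. The other 36 genes of the 64 never rose above 0.767 CPM in any line.

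**Figure D1:**
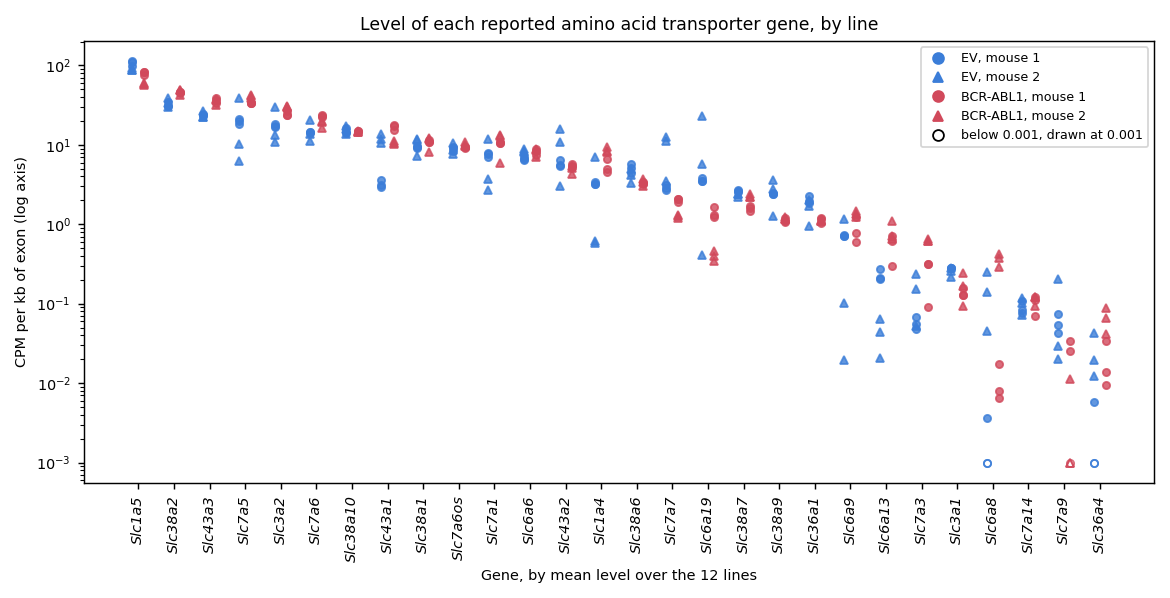
Level of the 28 reported genes in CPM per kilobase of exon (log axis), with 1 point per line, EV lines left and BCR-ABL1 lines right of each gene name. Slc1a5 lay above every other gene in every line, and the EV lines of mouse 2 spread widely for genes such as Slc7a5, Slc1a4 and Slc6a19.

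Summed over all families, the level was 276 to 319 CPM per kilobase in EV lines and 294 to 332 in BCR-ABL1 lines. These ranges overlapped. The Slc3 family sum was 11.2 to 30.0 in EV lines and 23.9 to 30.7 in BCR-ABL1 lines, and the Slc7 sum was 41.3 to 85.6 and 73.7 to 87.8. In both, EV 2C was the only EV line within the BCR-ABL1 range. The Slc1 sum went the other way, with 87.6 to 118 in EV lines and 65.4 to 87.6 in BCR-ABL1 lines. The Slc38 sum was 64.2 to 71.0 and 72.1 to 83.6 and did not overlap, and Slc38a2 was its highest member. These sums are descriptions with no test.

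The test between conditions called genes in both directions. The test, glmTreat on the quasi-likelihood fit of edgeR, asks whether a change exceeds 1.5-fold, with Benjamini-Hochberg adjustment (FDR) over 15038 genes, and 26 of the 28 genes were tested. Slc6a13 and Slc7a3 were higher in BCR-ABL1 lines, where 5.99% of all tested genes were called higher. Slc38a9, Slc7a7 and Slc6a19 were lower, where 6.49% of all tested genes were called lower. The other 21 were not called in either direction. The median log2 fold change was 0.17 over the 26 genes and -0.02 over all tested genes, and the median size of change was 0.65 against 0.40. Against no change at all, 7 of the genes were called higher and 7 lower, where 22.5% and 25.9% of all tested genes were. With mouse as a replicate block, 2 were called higher and 1 lower (edgeR's glmTreat), where 7.49% and 7.18% of all tested genes were.

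Positions of the called genes are those of GENCODE M21 on GRCm38. Slc6a13 (ENSMUSG00000030108) lies at chr6:121300227-121337733 on the plus strand and Slc7a3 (ENSMUSG00000031297) at chrX:101079210-101086020 on the minus strand. Slc38a9 (ENSMUSG00000047789) lies at chr13:112660751-112738749 on the plus strand, Slc7a7 (ENSMUSG00000000958) at chr14:54369442-54417780 on the minus strand and Slc6a19 (ENSMUSG00000021565) at chr13:73679745-73704865 on the minus strand.

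**Figure D2:**
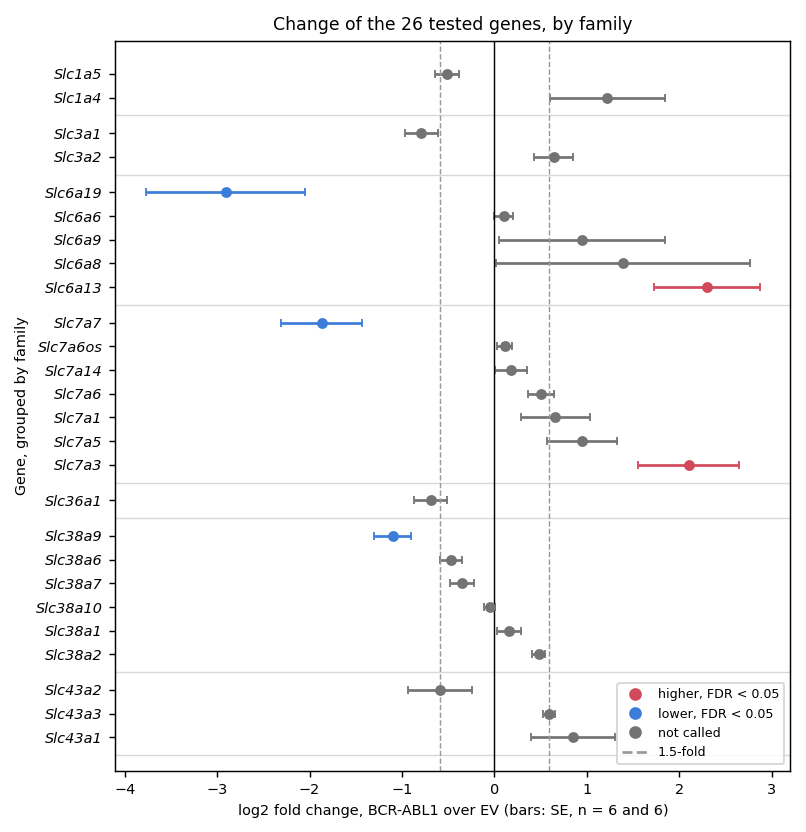
log2 fold change of BCR-ABL1 over EV lines for the 26 tested genes, grouped by family, with bars for the SE (6 lines per condition) and dashed lines at 1.5-fold. The called genes lie at 2.30 (Slc6a13), 2.10 (Slc7a3), -1.10 (Slc38a9), -1.87 (Slc7a7) and -2.91 (Slc6a19).

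Both genes called higher were expressed at low levels. Slc6a13, which encodes GAT2, a carrier of GABA and taurine, had 0.0596 to 0.783 CPM in the EV lines (median 0.393), against 0.865 to 3.22 CPM in the BCR-ABL1 lines (median 1.98). The 2 groups did not overlap. Slc6a13 reached 10 counts in 3 of the 6 EV lines (3 to 51 counts). Its entry to the test thus rested in part on the BCR-ABL1 lines, where it is high. Its log2 fold change was 2.30 (SE 0.57, FDR = 0.0213 by glmTreat), and the call held with each line left out but not with line pair as a replicate block (FDR = 0.0599). Slc7a3, which encodes the arginine carrier CAT3, had 0.184 to 0.884 CPM in the EV lines (median 0.233), against 0.339 to 2.50 CPM in the BCR-ABL1 lines (median 1.76). BCR-ABL1 1A, at 0.339 CPM, lay below EV 2A and EV 2C. Slc7a3 thus had a log2 fold change of 2.10 (SE 0.55, FDR = 0.0341 by glmTreat). The call was lost without EV 1A (FDR = 0.0722 by glmTreat), EV 1B (0.0721), EV 1C (0.0720), EV 2B (0.0682), BCR-ABL1 2A (0.0730), BCR-ABL1 2B (0.0680) or BCR-ABL1 2C (0.0671). Neither gene was tested where a level of at least 1 CPM in 6 lines was asked for. No member was thus called higher there, beside 5.02% of all genes tested.

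Among the genes called lower, Slc38a9 had the smallest change and the smallest SE. It encodes the lysosomal arginine sensor of the mTORC1 pathway. It had 21.1 to 59.5 CPM in the EV lines (median 40.6), against 18.0 to 20.4 CPM in the BCR-ABL1 lines (median 19.7). The groups did not overlap, but EV 2C, at 21.1 CPM, was close to them and the other EV lines began at 39.7 CPM. Slc38a9 had a log2 fold change of -1.10 (SE 0.20, FDR = 0.0193 by glmTreat), with -1.10 in mouse 1 alone (FDR = 1.49e-05) and -1.07 in mouse 2 alone (FDR = 0.283). The call held with each line left out, and DESeq2 gave an FDR of 0.0930.

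Slc7a7 encodes y+LAT1, a CD98 light chain that carries cationic amino acids out of the cell. It had 9.05 to 41.2 CPM in the EV lines (median 11.0), against 3.95 to 6.90 CPM in the BCR-ABL1 lines (median 5.32). The groups did not overlap, and EV 2A (37.3 CPM) and EV 2B (41.2 CPM) stood far above the other EV lines. Its log2 fold change was -1.87 (SE 0.44, FDR = 0.0254 by glmTreat). The call was lost without EV 2A (FDR = 0.0525 by glmTreat), EV 2B (0.0506), BCR-ABL1 2A (0.0546), BCR-ABL1 2B (0.0554) or BCR-ABL1 2C (0.0541), and with mouse as a replicate block (0.0520). The exons of Slc7a7 overlap those of Oxa1l on the opposite strand over 7% of their length, and the strand setting of the counting is not given in the sources used here.

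Slc6a19 encodes B0AT1, a sodium-coupled carrier of neutral amino acids best known from kidney and gut. It had 2.04 to 117 CPM in the EV lines (median 18.5), against 1.73 to 8.19 CPM in the BCR-ABL1 lines (median 4.28). EV 2B stood at 117 CPM and the next EV line at 28.4 CPM, whereas EV 2C, at 2.04 CPM, lay among the BCR-ABL1 lines of mouse 2. The log2 fold change was -2.91 (SE 0.86, FDR = 0.0363 by glmTreat). The call on Slc6a19 was lost without EV 2B (log2 fold change -1.93, FDR = 0.0925 by glmTreat), BCR-ABL1 1A (FDR 0.0568), BCR-ABL1 1C (0.0589), BCR-ABL1 2A (0.0756), BCR-ABL1 2B (0.0774) or BCR-ABL1 2C (0.0759), and with mouse as a replicate block (0.0553). Within mouse 1 alone, where EV lines held 17.7 to 19.3 CPM and BCR-ABL1 lines 6.27 to 8.19 CPM, the log2 fold change was -1.38 (FDR = 2.91e-05 by glmTreat). Within mouse 2 alone it was -4.60 and not called (FDR = 0.108 by glmTreat).

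The glutamine carriers were abundant and moved little, in opposite directions. Slc1a5 (ASCT2) had 362 to 478 CPM in the EV lines (median 402), against 238 to 346 CPM in the BCR-ABL1 lines (median 287), with no overlap. Its log2 fold change of -0.51 (SE 0.13) was short of the 1.5-fold test (FDR = 1.00 by glmTreat) and passed against no change (FDR = 0.00496 by edgeR's quasi-likelihood test). Slc38a2 (SNAT2) had 265 to 345 CPM in the EV lines (median 287), against 375 to 440.3 CPM in the BCR-ABL1 lines (median 409), again with no overlap. Its log2 fold change of 0.48 (SE 0.07) gave an FDR of 1.00 beyond 1.5-fold and 0.000304 against no change. The related Slc38a1 (SNAT1) overlapped between the groups, with 126 to 203 CPM in the EV lines (median 165), against 141 to 210.4 CPM in the BCR-ABL1 lines (median 193). Its log2 fold change was 0.16 (SE 0.13, FDR = 1.00 by glmTreat). The nucleobase carrier Slc43a3 had 100.1 to 118 CPM in the EV lines (median 104), against 143 to 172 CPM in the BCR-ABL1 lines (median 163). Its groups did not overlap, and the log2 fold change of 0.59 (SE 0.06) sat at the 1.5-fold bound (FDR = 0.686 by glmTreat, 3.00e-05 against no change). In all, 3 of the 26 genes had every BCR-ABL1 line above every EV line (Slc6a13, Slc38a2 and Slc43a3), against 12.1% of all tested genes. For 3 others every BCR-ABL1 line lay below every EV line (Slc1a5, Slc7a7 and Slc38a9), against 13.5%.

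CD98 and its partners turned on the EV lines of mouse 2. Slc7a5 (LAT1) had 23.1 to 144 CPM in the EV lines (median 71.4), against 123 to 157 CPM in the BCR-ABL1 lines (median 134). EV 2C, at 144 CPM, lay inside the BCR-ABL1 range, and all other EV lines lay below it. For Slc7a5 the log2 fold change was 0.95 (SE 0.38, FDR = 0.261 by glmTreat), and without EV 2C it was 1.28 (FDR = 0.0258). Its partner Slc3a2 had 38.6 to 105 CPM in the EV lines (median 59.8), against 83.7 to 108 CPM in the BCR-ABL1 lines (median 101). EV 2C was again the one EV line inside the BCR-ABL1 range. For Slc3a2 it was 0.64 (SE 0.21, FDR = 0.584 by glmTreat), and without EV 2C it was 0.86 (FDR = 0.0483). Within mouse 1 alone, with 3 lines a condition, Slc7a5 had a log2 fold change of 0.76 (FDR = 0.00807 by glmTreat) and Slc3a2 of 0.53 (FDR = 1.00). Within mouse 2 alone the values were 1.15 for Slc7a5 (FDR = 0.610 by glmTreat) and 0.76 for Slc3a2 (FDR = 0.638).

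The make-up of the CD98 light chains differed by line. Of the level per kilobase summed over Slc7a5, Slc7a6, Slc7a7, Slc7a8, Slc7a10 and Slc7a11, Slc7a5 held 56.1% to 68.7% in BCR-ABL1 lines. In EV lines its share was 51.3% to 55.0% in mouse 1, 28.7% in EV 2A, 20.9% in EV 2B and 61.7% in EV 2C. Slc7a7 took the opposite course, with 31.9% in EV 2A, 41.8% in EV 2B, 5.68% to 8.32% in the other EV lines and 2.01% to 3.53% in BCR-ABL1 lines. The share of Slc7a6 (y+LAT2) was 32.6% to 40.8% in EV lines and 29.2% to 40.3% in BCR-ABL1 lines, which overlapped. Slc7a8, Slc7a10 and the cystine carrier Slc7a11 (xCT) together held almost nothing, and Slc7a11 reached at most 8 counts in any line. The ratio of Slc3a2 to the summed light chains stayed between 0.368 and 0.487 in EV lines and between 0.403 and 0.534 in BCR-ABL1 lines.

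**Figure D3:**
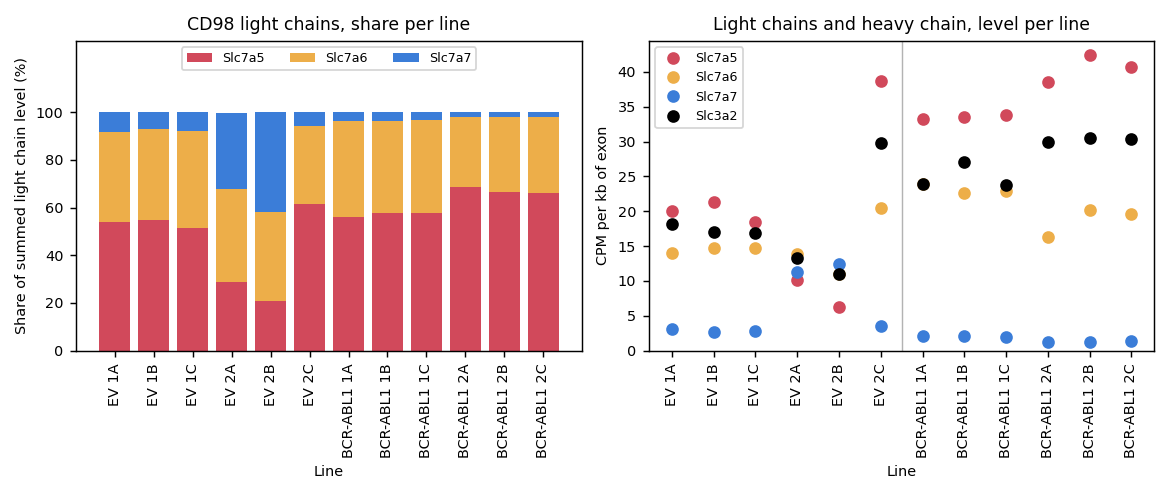
CD98 chains in each of the 12 lines, as the share of the summed light chain level (left, in %) and as the level in CPM per kilobase of exon (right). Slc7a7 holds 31.9% and 41.8% in EV 2A and EV 2B and at most 8.32% elsewhere, and in EV 2C Slc7a5 and Slc3a2 stand at the height of the BCR-ABL1 lines.

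The same spread of EV lines recurred in other carriers. In 6 of the 26 genes EV 2A and EV 2B were lowest, the EV lines of mouse 1 lay between and EV 2C was highest (Slc1a4, Slc3a2, Slc6a9, Slc7a1, Slc7a5 and Slc7a6), an order found in 9.11% of all tested genes. The reverse order held in 4 (Slc6a19, Slc38a1, Slc38a9 and Slc43a2), against 9.72%. These orders were chosen after the values were seen and carry no test. EV 2A and EV 2B also had the highest summed B lineage markers (4369 and 4320 CPM, against 2491 to 2686 in the other EV lines), whose part in this spread was not tested.

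Slc1a4 (ASCT1), a carrier of alanine, serine and cysteine, was one of them. Its level was 2.39 CPM in EV 2A and 2.28 CPM in EV 2B, 12.7 to 13.2 CPM in the EV lines of mouse 1, 27.6 CPM in EV 2C and 18.1 to 36.9 CPM in BCR-ABL1 lines (medians 12.7 and 29.3). The log2 fold change was 1.22 (SE 0.62, FDR = 0.297 by glmTreat). Slc7a1 (CAT1) had 30.9 to 136 CPM in the EV lines (median 84.5), against 68.6 to 156 CPM in the BCR-ABL1 lines (median 124). Its lowest BCR-ABL1 line, 2A, lay below the EV lines of mouse 1, and the log2 fold change was 0.66 (SE 0.37, FDR = 0.654). Slc6a9, the glycine carrier GlyT1, had 0.0993 CPM in EV 2B and 6.04 CPM in EV 2C, and a log2 fold change of 0.95 (SE 0.90, FDR = 0.711). Part of Slc6a9 (27.8% of its exon bases) overlaps Ccdc24 on the opposite strand. Slc43a2, the neutral amino acid carrier LAT4, ran the other way, with 161 CPM in EV 2B, 30.2 CPM in EV 2C and 43.1 to 57.9 CPM in BCR-ABL1 lines.

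**Figure D4:**
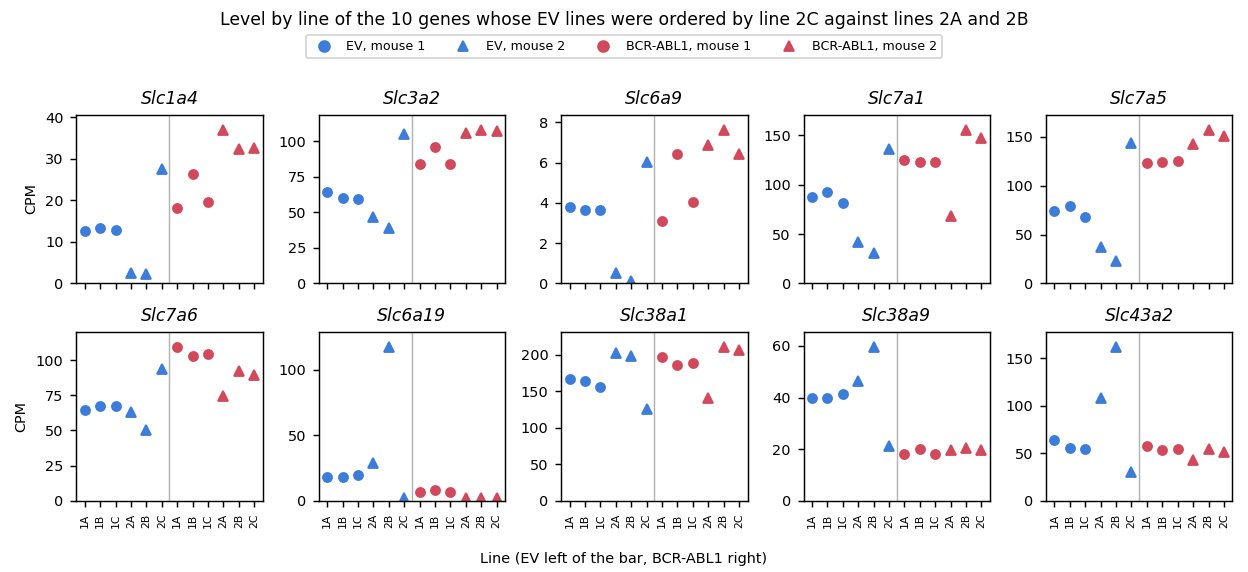
Level (CPM) by line of the 10 genes whose EV lines were ordered with EV 2C at one end and EV 2A and EV 2B at the other, with EV lines left and BCR-ABL1 lines right of the bar. EV 2C lies at or near the level of the BCR-ABL1 lines for genes such as Slc7a5 (144 CPM), Slc3a2 (105 CPM) and Slc38a9 (21.1 CPM).

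Of all EV lines, EV 2C lay nearest to the BCR-ABL1 median for 14 of the 26 genes, and for 38.8% of all tested genes. Leaving it out gave 4 genes called higher, where 8.83% of all genes tested were, and 4 called lower, where 9.35% were. The genes gained were Slc7a5, Slc3a2 and Slc36a1. Slc36a1 had 5.39 to 12.7 CPM in the EV lines (median 10.7), against 5.76 to 6.79 CPM in the BCR-ABL1 lines (median 6.24), with EV 2C alone below the BCR-ABL1 lines, and the log2 fold change was -0.69 (SE 0.18, FDR = 0.439 by glmTreat), and -0.81 without EV 2C (FDR = 0.0301).

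The change differed between the mice for 4 of the 26 genes (interaction of mouse and condition, edgeR's quasi-likelihood test, FDR below 0.05), against 16.9% of all tested genes. Slc43a1, which encodes the large neutral amino acid carrier LAT3, had the lowest FDR of the 4. In mouse 1 it had 16.9 to 20.9 CPM in the EV lines, against 87.6 to 101 CPM in the BCR-ABL1 lines, and in mouse 2 it had 59.7 to 78.1 and 58.5 to 64.6 CPM. The log2 fold change was 2.39 in mouse 1 and -0.15 in mouse 2, a difference of -2.54 (FDR = 2.60e-06 for the interaction). The pooled fold change of Slc43a1, 0.85 (SE 0.45, FDR = 0.466 by glmTreat), lay between the values of the mice.

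Slc6a13 rose by 1.23 on the log2 scale in mouse 1 and by 4.32 in mouse 2 (difference 3.08, interaction FDR = 0.00409 by edgeR), since its EV lines held 0.602 to 0.783 CPM in mouse 1 and 0.0596 to 0.184 CPM in mouse 2. The latter levels were 6, 3 and 7 counts in EV 2A, EV 2B and EV 2C, where 3 counts were taken as the floor. The value for mouse 2 thus rests on few counts. Slc7a7 had a log2 fold change of -0.52 in mouse 1 and -2.82 in mouse 2 (difference -2.31, interaction FDR = 0.00743). Slc38a7, a lysosomal glutamine carrier, had -0.71 in mouse 1 and -0.01 in mouse 2 (difference 0.69, interaction FDR = 0.0105). Its BCR-ABL1 lines held 6.14 to 7.02 CPM in mouse 1 and 9.15 to 10.1 CPM in mouse 2. Without EV 2C, 12 of the reported genes had an interaction, and so did 36.0% of all genes tested. With 2 mice, a difference between mice cannot be told apart from one between cultures.

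**Figure D5:**
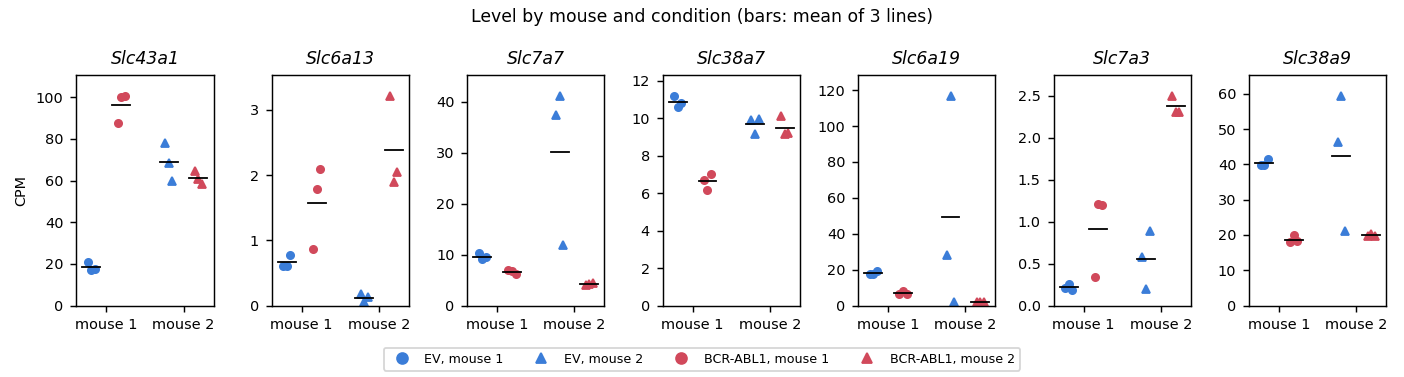
Level (CPM) by mouse and condition of the 4 genes with an interaction (Slc43a1, Slc6a13, Slc7a7 and Slc38a7) and of the other called genes (Slc6a19, Slc7a3 and Slc38a9), with 1 point per line and bars for the mean of 3 lines. Slc43a1 goes from 16.9 to 20.9 CPM up to 87.6 to 101 CPM in mouse 1 only.

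The remaining reported genes were not called. Slc7a6 had 50.5 to 93.6 CPM in the EV lines, against 74.7 to 109 CPM in the BCR-ABL1 lines (log2 fold change 0.50, SE 0.14), and Slc6a6 had 54.2 to 75.4 and 59.5 to 74.4 CPM (median 64.9 and 71.3, log2 fold change 0.10, SE 0.10, FDR = 1.00 by glmTreat). Slc38a6 held 25.7 to 44.6 CPM in the EV lines, against 23.3 to 29.3 CPM in the BCR-ABL1 lines. Slc38a10 and Slc7a6os had log2 fold changes of -0.05 (SE 0.06) and 0.11 (SE 0.08). The creatine carrier Slc6a8 followed the mouse more than the condition. It had 0 to 0.0909 CPM in all lines of mouse 1, 0.238 to 1.30 CPM in the EV lines of mouse 2 and 1.51 to 2.21 CPM in its BCR-ABL1 lines. Slc3a1, the heavy chain of the cystine carrier of the kidney, had 0.487 to 0.645 CPM in the EV lines, against 0.212 to 0.560 CPM in the BCR-ABL1 lines, and 26.5% of its exon bases overlap Prepl on the opposite strand. Its light chain Slc7a9 had 0.0541 to 0.552 and 0 to 0.0909 CPM, Slc7a14 had 0.715 to 1.17 and 0.695 to 1.20 CPM, and Slc36a4 had 0 to 0.276 and 0.0627 to 0.578 CPM. Slc7a9 and Slc36a4 were not among the genes tested.

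The 36 genes below the count rule were for the most part highest in a single line. For 34 of them the highest CPM was in EV 2A, the library with the fewest counts, and 18 exceeded 3 counts in that line alone. Their median level there was 0.169 CPM, against at most 0.0397 CPM in any other line. No such gene was at 0 in every line. The glutamate carrier Slc1a2 was the highest of them, with 0.767 CPM in EV 2A. Myeloid and stromal markers were also highest in EV 2A (summed 1.20 and 1.69 CPM), and their part in this was not tested.

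Genes around the carriers were counted from 3 lists, which were chosen with earlier results of these data known. Their counts beside the shares of all tested genes are therefore descriptions with no set test. Of the 39 genes of the amino acid response (targets and partners of ATF4), 34 were tested, and 6 were called higher and 0 lower, beside 5.99% and 6.49% of all tested genes. Their median log2 fold change was 0.60. Chac1, which degrades glutathione, had 0.0154 to 0.144 CPM in the EV lines, against 2.46 to 6.89 CPM in the BCR-ABL1 lines (FDR = 9.32e-06 by glmTreat). Jdp2 had 0 to 0.0613 and 0.386 to 3.58 CPM (FDR = 0.000531), and Trib3, a feedback inhibitor of ATF4, had 0.169 to 3.14 and 5.56 to 10.4 CPM (log2 fold change 3.64, SE 0.65, FDR = 0.0101). The other genes called were Asns (asparagine synthetase), Psat1 (an enzyme of serine synthesis) and Eif4ebp1 (an inhibitor of translation). Atf4 itself was not called, with 162 to 278 CPM in the EV lines, against 268 to 390.4 CPM in the BCR-ABL1 lines (log2 fold change 0.55, SE 0.14, FDR = 0.881). EV 2C was nearest to the BCR-ABL1 median for 22 of the 34 genes, beside 38.8% of all tested genes. The order of EV lines seen in Slc7a5 held in 19 of them, beside 9.11%. Jdp2 (0 to 3 counts in EV lines) and Chac1 (1 to 10 counts) reached 10 counts in 0 and 1 EV lines. They entered the test through the BCR-ABL1 lines, where they are high. Trib3 (7 to 174 counts) reached 10 counts in 4 of the 6 EV lines, so its entry also rested in part on the BCR-ABL1 lines. Asns, Psat1 and Eif4ebp1 reached 10 counts in all 6 EV lines. Without EV 2C, 13 genes of the list were called higher, beside 8.83% of all genes tested. Without EV 2A, BCR-ABL1 2A, BCR-ABL1 2B or BCR-ABL1 2C, 3 were, beside 6.66%, 5.35%, 5.30% and 5.35% of all genes tested.

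Of the 42 genes of amino acid sensing by mTORC1, 40 were tested. Of these, 1 was called higher and 1 lower, beside 5.99% and 6.49% of all tested genes. Rragd, one of the Rag GTPases that recruit mTORC1 to the lysosome, had 33.6 to 65.9 CPM in the EV lines, against 13.5 to 22.2 CPM in the BCR-ABL1 lines (log2 fold change -1.76, SE 0.19, FDR = 0.000203 by glmTreat). The groups did not overlap, and EV 2C, at 65.2 CPM, stood among the higher EV lines, unlike for Slc38a9. Castor1, a cytosolic arginine sensor, had 0.0307 to 0.276 and 0.373 to 0.713 CPM (log2 fold change 2.28, SE 0.33, FDR = 0.00423). With 2 to 9 counts in EV lines, it entered the test only through the BCR-ABL1 lines. Rraga, Rragc and Lamtor1, further parts of the lysosomal complex, were not called, with log2 fold changes of 0.37, -0.13 and -0.15. With mouse as a replicate block, without EV 2C or without BCR-ABL1 2A, 2 genes of the list were called lower. The shares of all genes tested that were called lower there were 7.18%, 9.35% and 6.03%.

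Of the 42 genes of amino acid use, 35 were tested. Of these, 3 were called higher and 0 lower, beside 5.99% and 6.49% of all tested genes. Gldc, which cleaves glycine in mitochondria, had 0 to 0.307 CPM in the EV lines, against 2.31 to 9.28 CPM in the BCR-ABL1 lines (FDR = 0.000792 by glmTreat). Gcat, which acts on the route from threonine to glycine, had 0.0921 to 0.884 CPM in EV lines, whereas the transformed lines held 4.24 to 7.13 CPM (mouse 1) and 35.2 to 44.4 CPM (mouse 2), with an FDR of 0.000553. Bcat1, the cytosolic transaminase of the branched-chain amino acids that LAT1 takes up, had 10.7 to 86.5 and 131 to 156 CPM (log2 fold change 1.85, SE 0.47, FDR = 0.0230). For Bcat1, as for Slc7a5, EV 2A and EV 2B were lowest and EV 2C was highest among EV lines. Gldc had 10 counts in only 1 EV line and entered the test through the BCR-ABL1 lines. Gcat (5 to 49 counts in EV lines) reached 10 counts in 3 of the 6 EV lines, so its entry also rested in part on the BCR-ABL1 lines. Bcat1 reached 10 counts in all 6 EV lines. Without EV 2C, 11 genes of this list were called higher, beside 8.83% of all genes tested. Erythroid markers, mostly Hbb-bt, summed to 1.26 to 6.79 CPM in the EV lines, against 5.94 to 12.7 CPM in the BCR-ABL1 lines, and their part in these changes was not tested.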

How the data were processed

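RNA was sequenced from 6 EV and 6 BCR-ABL1 pre-B cell lines (3 per condition from each of 2 mice) with a stranded total RNA kit. The deposited file holds raw counts per gene, which the authors made on GRCm38; the submitters' processing notes list Trimmomatic 0.36, TopHat2 2.1.1, Bowtie2 2.3.2 and featureCounts 1.5.3. The strand setting of the counting is not given in the sources used here. Of 51826 genes, 51633 had a GENCODE symbol.

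The members and lists were chosen with earlier results of these data known. Counts were filtered (filterByExpr), scaled (TMM) and tested in edgeR 4.0.16 (R 4.3.3) with glmTreat against 1.5-fold on condition alone, at an FDR of 0.05 over 15038 genes; the procedure was tested on simulated data. SE values come from the spread of log2 CPM (prior count 2) between lines. Levels per kilobase use the union of exons in GENCODE M21. A level of 3 counts was taken as the floor. Alternatives used DESeq2 1.42.0, other scalings, filters, tests, blocks and omitted lines.

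The labels give the same mouse the same first digit, so mouse pairs the lines. Lines of the same mouse deviated together from the condition means (correlations 0.0853 to 0.240 across genes, against -0.203 to -0.0636 between mice). The letter did not pair them (-0.109 to 0.0856 after mouse means were removed). Lines of one mouse and condition differed beyond counting error (chi-square per gene 10.1 to 480), and no 2 of them were treated as one sample. The labels describe separate experiments, but the lines came from only 2 mice, so p-values measure the spread between lines. Depth was 34791011 to 66011225 counts, and counting error is small except for genes below about 1 CPM.

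Full values were given for called genes, the highest gene of each family, a set of carriers best known for supplying lymphoid cells, for lysosomal sensing or for a substrate that is no amino acid, and up to 3 called genes per direction and list; genes named beyond that were chosen after their values were seen.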

Additional observations from a re-analysis of the deposited data

Results flagged for a closer look

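Of 56 groups of 6 lines checked for a line far from the rest, 3 held one, about the number that chance gives (1 in 20). Slc6a19 stood at 117 CPM in EV 2B, and the next EV line had 28.4 CPM. Slc7a9 had 0.552 CPM in EV 2A and 0.200 CPM in the next EV line. Slc38a1 had 141 CPM in BCR-ABL1 2A, below the 187 CPM of the next BCR-ABL1 line.

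The log2 fold change differed between mouse 2 and mouse 1 in 4 of the 26 genes (interaction test of edgeR), against 16.9% of all tested genes. The difference was 3.08 for Slc6a13 (FDR = 0.00409), -2.31 for Slc7a7 (FDR = 0.00743), 0.69 for Slc38a7 (FDR = 0.0105) and -2.54 for Slc43a1 (FDR = 2.60e-06). For Slc6a13 the EV lines of mouse 2 held only 3 to 7 counts.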

How the results depend on the processing

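The counts of genes called moved with the setting (edgeR unless named). Shares in brackets are those of all genes tested. Against no change (22.5% higher, 25.9% lower), 7 members were called higher and 7 lower, with 17 and 2 response genes, 6 and 11 sensing genes, and 19 and 3 genes of amino acid use. Where at least 1 CPM in 6 lines was asked for (5.02% higher), 0 members and 0 sensing genes were called higher, because the genes in question were no longer tested. Mouse as a replicate block (7.49% and 7.18%) gave 1 member and 2 sensing genes lower; for members higher, response genes (8) and use genes (3) it moved the count by less than 1.5 times. Line pair as a replicate block (6.14% and 5.09%) gave 1 member higher and 1 lower, with the calls on Slc6a13, Slc7a7 and Slc6a19 lost. Mouse 1 alone (16.3% and 12.2%) gave 5 members, 10 response, 3 sensing and 11 use genes higher, and 1 response, 5 sensing and 1 use gene lower. Mouse 2 alone (3.99% and 2.65%) gave 1 member higher, 1 lower and 0 sensing genes higher. Leaving out EV 2A and EV 2C together, chosen after seeing the data (10.2% and 9.87%), gave 12 response and 10 use genes higher, 3 sensing genes and 1 use gene lower, and 13 members with an interaction (37.8%). With no gene filter 7 members had an interaction (7.96%). With each line left out, members higher ranged from 1 to 4, members lower from 1 to 4, members with an interaction from 4 to 12, response genes higher from 3 to 13, sensing genes lower from 1 to 2 and use genes higher from 3 to 11. The highest of each range, but for sensing genes, came only without EV 2C (8.83% and 9.35%, interaction 36.0%), and the cause was not tested. Leaving out any other single line gave shares of 5.29% to 6.66% higher, 5.24% to 6.13% lower and 12.3% to 19.6% for the interaction.

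Direction changed for 3 members. Slc38a10 went from -0.05 to 0.00 with no gene filter, 0.01 in mouse 1 alone and -0.07 to 0.00 with each line left out (0.00 without EV 1A), Slc6a6 from 0.10 to -0.06 in mouse 2 alone, and Slc43a1 from 0.85 to -0.15 in mouse 2 alone. Of the called members, Slc6a13 was called under 22 of 23 alternatives, Slc38a9 under 22 of 24, Slc7a7 under 16 of 24, Slc7a3 under 15 of 23 and Slc6a19 under 15 of 24. With the longest transcript as length, the mean share of Slc7a7 in BCR-ABL1 lines was 3.57% instead of 2.76%. Levels below 3 counts (0.0433 to 0.0920 CPM) cannot be told from 0 at this depth.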
